A study of Mus musculus with 12 samples.

Results

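The 10 genes described here encode the enzymes and the accessory protein that make prostaglandins, thromboxane and leukotrienes from arachidonic acid. They were chosen by name, as Pla2g4a, Ptgs1, Ptgs2, Ptges, Ptgis, Tbxas1, Alox5, Alox5ap, Lta4h and Ltc4s, and all 10 were found among the 43278 gene symbols of the deposited table. RNA was sequenced from thioglycolate-elicited mouse peritoneal macrophages (PMφs), which are macrophages recruited to the peritoneal cavity by an irritant and then cultured, to compare the transcriptome of cells loaded with oxidized low-density lipoprotein (oxLDL) with that of unloaded cells before and after lipopolysaccharide (LPS). There were 4 groups of 3 libraries, all from WT cells. Control PMφs received neither agent, oxLDL PMφs were cultured for 24 h with 100 µg/ml of human medium oxidized LDL, LPS PMφs received 10 ng/ml of ultrapure LPS, and oxLDL+LPS PMφs received the lipoprotein and then LPS. How long LPS was applied is not given for these libraries in the sources used here. The mice were C57BL/6J of both sexes, 8 to 12 weeks old. For each experiment cells of up to 10 mice were combined and then split over the 4 conditions, so a library stands for a pool of animals and not for 1 mouse. Libraries with the same replicate number are called pool 1, pool 2 and pool 3 below. The labels give only the replicate number. That it stands for a pool is inferred from the study's methods and from shared deviations of same-numbered libraries.

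Macrophages release arachidonic acid from membrane phospholipids through cytosolic phospholipase A2, which Pla2g4a encodes. The cyclooxygenases COX-1 (Ptgs1), which many cells make all the time, and COX-2 (Ptgs2), a classical inducible gene of inflamed tissue, turn arachidonic acid into prostaglandin H2, and terminal synthases convert that into prostaglandin E2 (Ptges, the microsomal enzyme), prostacyclin (Ptgis) or thromboxane A2 (Tbxas1). The competing route runs through 5-lipoxygenase (Alox5) and its membrane partner FLAP (Alox5ap) to leukotriene A4, from which Lta4h makes the neutrophil attractant leukotriene B4 and Ltc4s makes the cysteinyl leukotriene C4.

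The sequences upstream of the start sites of COX-2, microsomal prostaglandin E synthase and COX-1 are shown because the first 2 genes had the greatest ranges of group means among the 10 and COX-1 moved the other way with LPS. They are RefSeq promoters of GRCm38.p6, 5′ to 3′ on the strand of the gene, each with the 250 bases before the start. For Ptgs2 the first 30 bases after the start are given as well. Capitals mark matches, on either strand, to the motif letters TGACG (the core of a cAMP response element, searched also as the full palindrome), CACGTG (an E-box), TTGCNNAA (C/EBP), TATAAA (the core promoter element of that name), GGGCGG (the box bound by Sp factors), TGANTCA (AP-1) or TGACNNNGC (the antioxidant response element), or to the NF-κB and interferon-stimulated response motifs.
Ptgs2, chr1:150099781-150100030, plus strand: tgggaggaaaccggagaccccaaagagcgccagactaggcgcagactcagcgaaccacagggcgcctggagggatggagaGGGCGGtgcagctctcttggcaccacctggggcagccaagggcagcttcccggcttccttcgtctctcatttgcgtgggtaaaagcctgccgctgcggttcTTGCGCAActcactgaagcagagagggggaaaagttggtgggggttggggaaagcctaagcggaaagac
Ptgs2 after the start, chr1:150100031-150100060, plus strand: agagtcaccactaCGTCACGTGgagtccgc
Ptges, chr2:30903298-30903547, minus strand: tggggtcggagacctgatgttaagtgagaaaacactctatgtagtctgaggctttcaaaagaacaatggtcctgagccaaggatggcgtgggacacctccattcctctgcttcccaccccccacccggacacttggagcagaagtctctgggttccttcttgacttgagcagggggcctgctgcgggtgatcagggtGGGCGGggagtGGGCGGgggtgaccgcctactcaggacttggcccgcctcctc
Ptgs1, chr2:36230176-36230425, plus strand: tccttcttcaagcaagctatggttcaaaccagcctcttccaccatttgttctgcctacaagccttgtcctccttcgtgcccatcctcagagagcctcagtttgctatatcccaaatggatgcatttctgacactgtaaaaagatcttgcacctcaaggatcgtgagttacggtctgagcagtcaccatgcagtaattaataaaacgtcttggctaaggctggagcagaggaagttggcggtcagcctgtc
The upstream window of Ptgs2 held a match to GGGCGG and, from 69 to 62 bases before the start, a C/EBP match, and its first bases after the start held a reverse-strand TGACG that shares 2 letters with a CACGTG. The Ptges window held 2 matches to GGGCGG, and the Ptgs1 window held none of the 10 motifs searched. C/EBP letters were present in 10.8% of the 32851 RefSeq promoters of 300 bases, TGACG in 20.8%, CACGTG in 7.15%, GGGCGG in 35.7% and the NF-κB motif in 8.46%. A match is a description of these letters and not a measured site of binding, and promoters of 8 of the 10 genes were in the RefSeq table.

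Values are normalized counts, that is read counts that had been scaled by a library factor and rounded before deposit. Libraries summed to 17152972 to 17709731 normalized counts without LPS and to 22071853 to 26384551 with LPS, from an implied 16725912 to 26178189 reads. All 8 macrophage markers examined were above the filter described below, and their sums ranged from 231967 to 272543 without LPS and from 258417 to 347950 with LPS. Of the neutrophil markers Ly6g was at 0 and S100a9 at most at 1, while Mmp8 was at 131 to 1661 and S100a8 at 31 to 248. Of the eosinophil markers Prg2 was at 0 and Epx at most at 1, while Siglecf was at 180 to 383 without LPS and 55 to 124 with LPS. The mast cell genes Cpa3 and Tpsb2 stayed between 7 and 44, and Hdc of the same list was 18 to 30 without LPS and 360 to 1957 with LPS. Endothelial Tek reached at most 3 and Kdr was at 221 to 674, and platelet Gp9 reached at most 1 and Pf4 was at 273 to 720. The part of these cells in the results was not tested. The 9 mesothelial and fibroblast markers were present in amounts that differed between pools and are given beside Ptgis. In bulk RNA, fewer cells of a type and less RNA per cell cannot be told apart.

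In control PMφs the most abundant of the 10 transcripts per kilobase was that of FLAP. Divided by the summed length of the exons, Alox5ap stood at 1693 ± 345 normalized counts per kb (SD, n = 3), Lta4h at 396 ± 72.5, and Ptgis, Ptgs1 and Tbxas1 followed at 217 ± 54.2, 204 ± 26.7 and 174 ± 19.4 with overlapping ranges. Below these, Pla2g4a, Ptges and Ltc4s overlapped at 37.7 ± 1.28, 32.4 ± 11.2 and 31.2 ± 15.1 per kb, Ptgs2 was at 13 ± 2.08 and Alox5 was the lowest at 5.28 ± 2.68. Thus the transcript of 5-lipoxygenase was at 11 to 33 normalized counts in control PMφs while that of its partner FLAP was at 1846 to 2764. With LPS the order opened with Ptgs2 (9194 ± 5283 per kb), Ptges (1336 ± 75) and Alox5ap (842 ± 215), whose ranges did not overlap, and closed with Ltc4s (14.8 ± 8.07) and Alox5 (1.38 ± 0.783). In oxLDL+LPS PMφs the ranges of Ptgs2 (2840 ± 2054 per kb), Alox5ap (1445 ± 599) and Ptges (1352 ± 129) each overlapped the next. The 10 genes together summed to 7977 to 9343 normalized counts in the 6 libraries without LPS and to 15787 to 72680 in the 6 with LPS.

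**Figure D1:**
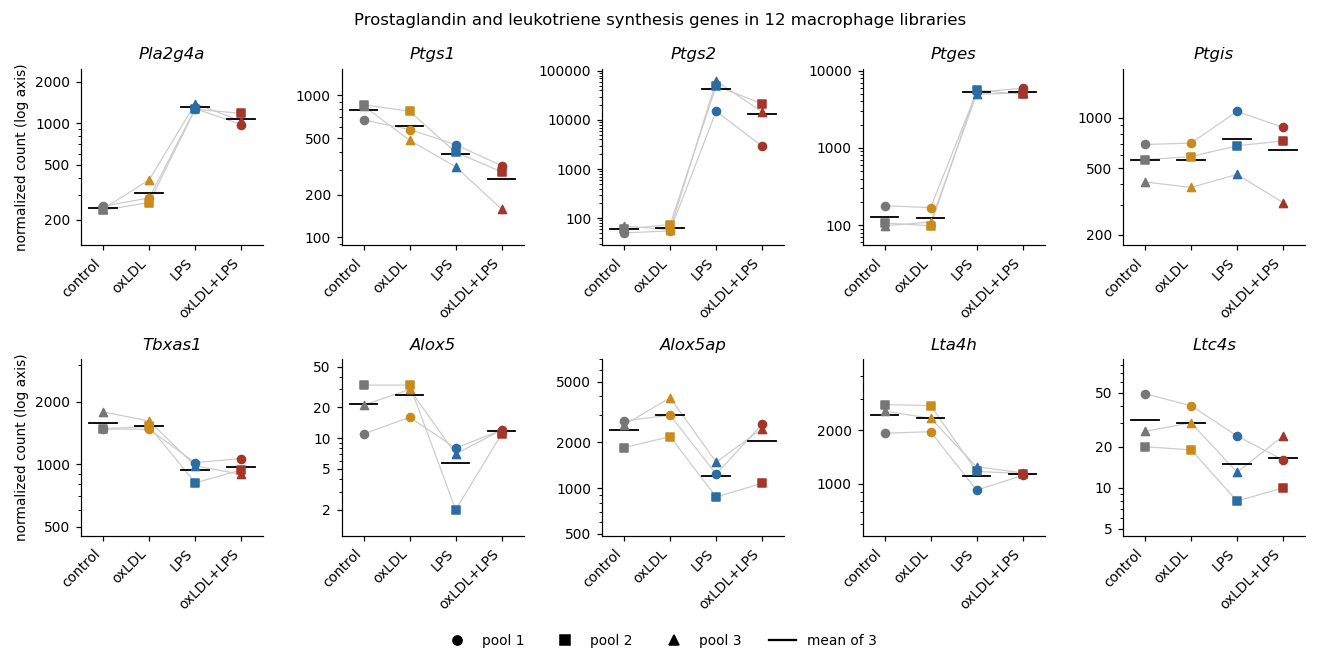
Normalized count on a log axis (vertical) of each of the 10 genes in the 4 groups (horizontal), with a point per library, its shape giving the pool, a black bar at the mean of the 3 libraries and grey lines joining libraries of the same pool. Pla2g4a, Ptgs2 and Ptges sit higher in all 6 libraries with LPS than in any without it, whereas Ptgs1, Tbxas1 and Lta4h sit lower in the LPS groups than in the matching group without LPS.

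To ask how LPS altered these transcripts in unloaded cells, LPS PMφs were compared with control PMφs. The steps leading to prostaglandin E2 rose together, while transcripts for COX-1, thromboxane synthase, FLAP and leukotriene A4 hydrolase fell, and the low Alox5 and Ltc4s were called lower as well. Of the 10 genes, 3 were higher and 6 were lower by limma on log2(value + 1) at a Benjamini-Hochberg adjusted p under 0.1, a threshold used throughout. Of all 13023 genes tested, 31.4% were higher and 30.3% were lower, so a change with LPS was common among expressed genes. The median difference of the 10 was -0.89 on the log2 scale, against 0.00 over all tested genes. All 10 passed the filter of at least 10 normalized counts in at least 3 libraries, but Alox5 passed it only through the control libraries, where it is high. Ltc4s, at 24, 8 and 13 with LPS, reached 10 in some LPS libraries but not in all. The count is thus no support by itself. With the pool as a block, 4 of the 10 were higher and 6 lower, against 34.6% and 34.1% of all genes, and the added gene was Ptgis.

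COX-2 had the greatest difference with LPS of the 10 genes. Ptgs2 was at 50, 60 and 69 normalized counts in control pools 1 to 3 and at 15114, 49362 and 61849 in LPS pools 1 to 3. All 3 LPS libraries were far above all 3 control libraries, and pool 1 responded least. Ptgs2 was 596-fold higher, with a log2 fold change of 9.22 (SE 0.47, 95% confidence interval 8.12 to 10.32) and an adjusted p of 3.41e-06 by limma. Without the LPS library of pool 1 the log2 fold change was 9.84. Ptgs2os2, a noncoding RNA gene annotated on the opposite strand downstream of Ptgs2, at chr1:150159043-150164948, was at 0, 3 and 0 in control pools and at 98, 372 and 203 with LPS, so that it passed the filter only through the LPS libraries.

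Microsomal prostaglandin E synthase and cytosolic phospholipase A2 rose with little spread between pools. Ptges was at 178, 106 and 98 normalized counts in control pools 1 to 3 and at 5254, 5543 and 4953 with LPS. This was a 42.4-fold difference (log2 fold change 5.41, SE 0.21, limma adjusted p = 8.70e-07), and the LPS libraries lay within 1.12 times of each other. Pla2g4a was at 250, 234 and 239 in control pools and at 1274, 1261 and 1380 with LPS, a 5.39-fold difference (log2 fold change 2.43, SE 0.09, adjusted p = 7.34e-07). Of the other prostaglandin E synthases, Ptges2 and Ptges3 also rose, by 0.62 and 0.90 on the log2 scale, although with equal library sums Ptges2 was at 0.14 and was no longer called (limma adjusted p = 0.44). The ratio of Ptges to Ptges2 per kb was 0.66 to 1.03 in control libraries and 18 to 26.9 with LPS.

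COX-1 and thromboxane synthase moved in the opposite direction to COX-2. Ptgs1 was at 672, 859 and 843 normalized counts in control pools and at 450, 397 and 314 with LPS, with no overlap between the groups. The log2 fold change was -1.04 (SE 0.16, adjusted p = 0.0011 by limma). The ratio of Ptgs2 to Ptgs1 per kb was 0.0592 to 0.0694 in control libraries and 28.5 to 167 with LPS. Tbxas1 was at 1477, 1481 and 1784 in control pools and at 1016, 812 and 980 with LPS, so that 54.8% to 68.8% of the level of the same pool remained (log2 fold change -0.76, SE 0.12, adjusted p = 0.00139).

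FLAP and leukotriene A4 hydrolase were lower with LPS in every pool, and so were the low-level Alox5 and Ltc4s. Alox5ap was at 2764, 1846 and 2602 normalized counts in control pools and at 1235, 873 and 1479 with LPS, and the groups did not overlap (log2 fold change -1.02, SE 0.22, limma adjusted p = 0.0057). Lta4h, for the enzyme of leukotriene B4 synthesis, went from 1922, 2776 and 2551 to 923, 1175 and 1246 (log2 fold change -1.11, SE 0.17, adjusted p = 9.33e-04). The fall of both was close to the same in each pool, with 44.7% to 56.8% of Alox5ap and 42.3% to 48.8% of Lta4h remaining. Alox5 was at 11, 33 and 21 in control pools and at 8, 2 and 7 with LPS, all of them low values (log2 fold change -1.79, SE 0.58, adjusted p = 0.0316). Ltc4s was at 49, 20 and 26 and at 24, 8 and 13, and the groups overlapped (log2 fold change -1.06, SE 0.48, adjusted p = 0.0992 by limma and 0.0121 with the pool as a block). The call of Ltc4s without the block was lost when control pool 1 (adjusted p = 0.306), control pool 3 (0.147), LPS pool 2 (0.263) or LPS pool 3 (0.187) was left out, and under 8 of the 19 alternatives in all.

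Prostacyclin synthase was the 1 gene of the 10 that did not pass the threshold. Ptgis was at 692, 562 and 414 normalized counts in control pools and at 1089, 680 and 459 with LPS. The groups overlapped, although each pool was higher with LPS (log2 fold change 0.36, 95% confidence interval -0.38 to 1.09, adjusted p = 0.371 by limma and 0.035 with the pool as a block). The value depended on the scaling. When libraries were set to equal sums, the median of all tested genes moved to -0.48 on the log2 scale, the genes called were 2210 higher and 7200 lower in place of 4093 and 3946, and Ptgis was at -0.12. Under that scaling, the 9 genes called without the block were called in their original directions, and under quantile normalization, which moved the median to -0.14, all but Ltc4s were.

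**Figure D2:**
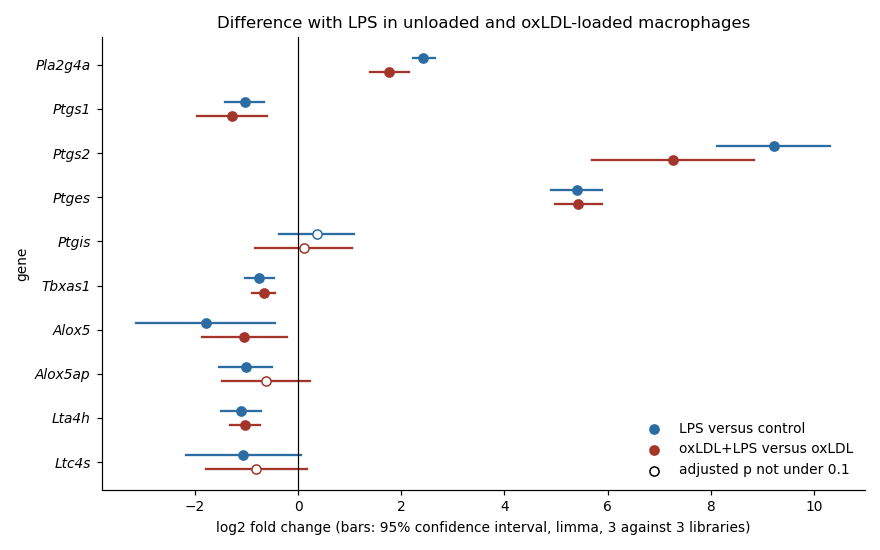
Log2 fold change with LPS (horizontal axis) of each gene (vertical axis) in unloaded PMφs (blue, LPS versus control) and in oxLDL-loaded PMφs (red, oxLDL+LPS versus oxLDL), with 95% confidence intervals from limma over 3 against 3 libraries and open circles where the adjusted p was not under 0.1. Ptgs2 stood at 9.22 and 7.27, Ptges at 5.41 and 5.43 and Pla2g4a at 2.43 and 1.77, and the genes below 0 had intervals that overlapped between unloaded and loaded cells.

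In oxLDL-loaded cells the same comparison, oxLDL+LPS against oxLDL, was made on the other 6 libraries. Again Ptgs2, Ptges and Pla2g4a were higher, and Ptgs1, Tbxas1, Alox5 and Lta4h were lower, which is 3 and 4 of the 10 against 28.2% and 26.3% of 12900 tested genes. The median difference of the 10 was -0.65, and that of all tested genes -0.02. With the pool as a block Alox5ap and Ltc4s were lower as well, so that 6 of the 10 were lower and 3 higher, against 31.4% and 32% of all genes. Equal library sums, which moved the median of all genes to -0.40 and the calls to 2055 higher and 6617 lower, also gave 3 higher and 6 lower.

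Ptgs2 was at 55, 74 and 58 normalized counts in oxLDL pools 1 to 3 and at 2888, 21485 and 14644 in oxLDL+LPS pools 1 to 3. The groups were again fully apart and pool 1 was again the lowest with LPS (log2 fold change 7.27, SE 0.67, limma adjusted p = 1.25e-04, 154-fold). Without the oxLDL+LPS library of pool 1 the value was 8.14. Ptges was at 168, 98 and 109 and at 5895, 4949 and 5103 (log2 fold change 5.43, SE 0.20, adjusted p = 1.47e-06), and Pla2g4a was at 287, 266 and 389 and at 977, 1177 and 1037 (1.77, SE 0.16, adjusted p = 1.08e-04). Neither gene had overlapping groups.

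Among the genes that were lower, Ptgs1 was at 575, 774 and 483 normalized counts in oxLDL pools and at 320, 290 and 158 in oxLDL+LPS pools (log2 fold change -1.29, SE 0.29, limma adjusted p = 0.00898). Lta4h was at 1958, 2742 and 2331 and at 1115, 1143 and 1154 (log2 fold change -1.03, SE 0.12, adjusted p = 4.65e-04), and Tbxas1 was at 1471, 1519 and 1613 and at 1064, 937 and 893 (-0.67, SE 0.09, adjusted p = 9.22e-04). The groups of Ptgs1, Lta4h and Tbxas1 did not overlap. Here, above and in the comparisons below, the share of all tested genes with groups apart was not counted. Alox5 was at 16, 33 and 30 and at 12, 11 and 12 (log2 fold change -1.05, SE 0.35, adjusted p = 0.043). The call was lost without oxLDL pool 2 (adjusted p = 0.16) or oxLDL pool 3 (0.142), and under 4 of the 20 alternatives in all (limma adjusted p up to 0.186).

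Alox5ap was at 3008, 2175 and 3916 normalized counts in oxLDL pools and at 2625, 1074 and 2455 in oxLDL+LPS pools. It was lower with LPS in each pool but the groups overlapped (log2 fold change -0.63, SE 0.36, adjusted p = 0.198 by limma and 0.0125 with the pool as a block). Ltc4s, at 40, 19 and 30 and at 16, 10 and 24, was likewise lower in each pool (log2 fold change -0.81, SE 0.42, adjusted p = 0.151 and 0.0561 with the block). Ptgis, at 705, 586 and 384 and at 875, 726 and 312, was higher in pools 1 and 2 and lower in pool 3 (log2 fold change 0.11, 95% confidence interval -0.83 to 1.04, adjusted p = 0.851, and -0.28 with equal library sums).

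With oxLDL in the absence of LPS, none of the 10 genes passed the threshold without the block. Nor did any of the 12751 genes tested by limma (0%), of which 381 had an unadjusted p under 0.05. With the pool as a block, 1.8% of all genes were higher and 2.92% lower, and among the 10 genes Alox5ap was higher and Ptgs1 lower. The 10 genes were chosen with earlier results of these data known. Their counts against such shares, here and after LPS, are thus no support by themselves. Alox5ap was at 109%, 118% and 150% of the control level in oxLDL pools 1 to 3 (log2 difference 0.32, SE 0.07 and adjusted p = 0.0483 with the block, 1 without it), and Ptgs1 was at 85.6%, 90.1% and 57.3% (-0.39, SE 0.10, adjusted p = 0.0763 with the block, 1 without it). Pool 3 had the larger departure for both. Neither call held in a blocked fit of all 12 libraries together, in which both adjusted p were 1, and the Ptgs1 call was also lost when pool 1 (0.14) or pool 2 (0.13) was left out and the Alox5ap call when pool 2 was (0.219).

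Pla2g4a was at 115%, 114% and 163% of its control level in oxLDL pools 1 to 3, with no overlap between the groups, and did not reach the threshold (log2 difference 0.36, 95% confidence interval 0.01 to 0.71, adjusted p = 1 by limma and 0.104 with the block). For the other 7 genes the mean differences lay between -0.05 and 0.33, and each group overlapped its control. The interval was -0.40 to 0.53 for Ptgs2, -0.68 to 0.65 for Ptges, -0.61 to 0.59 for Ptgis, -0.25 to 0.17 for Tbxas1 and -0.43 to 0.35 for Lta4h. For Alox5 the interval was -0.72 to 1.39, and for Ltc4s the difference was -0.05 with a standard error of 0.40.

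Between oxLDL+LPS and LPS PMφs, the comparison of loaded with unloaded cells after LPS, COX-2 was lower in loaded cells in every pool and FLAP was higher in every pool. Without the block 0 of the 10 genes and 0% of 12786 tested genes passed the threshold, with 890 genes at an unadjusted p under 0.05. With the pool as a block 1 of the 10 was higher and 3 were lower, against 4.42% and 8.74% of all genes. That split moved with the scaling, since equal library sums with the block gave 1010 genes higher and 564 lower in place of 565 and 1117, and shifted the median of all genes by 0.08.

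Ptgs2 in oxLDL+LPS PMφs was at 19.1%, 43.5% and 23.7% of the level in LPS PMφs of pools 1, 2 and 3. The 2 groups overlapped as a whole, because the LPS library of pool 1 lay below the oxLDL+LPS library of pool 2, while each pool taken by itself was lower with oxLDL. The log2 difference was -1.89 with a standard error of 0.82 and an adjusted p of 0.709 by limma, and a standard error of 0.19 and an adjusted p of 0.00347 with the pool as a block. The adjusted p with the block was 0.0203 with equal library sums, 0.0498 in a fit of all 12 libraries, 0.0642 without pool 1 and 0.349 without pool 3, a setting in which 0 of all genes were called. Ptgs2os2 moved alike, at 41.8%, 71.8% and 35% of the LPS level (log2 difference -1.07, adjusted p = 0.784, and 0.0133 with the block).

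Ptgs1 and Alox5ap also differed once pools were compared within themselves. Ptgs1 was at 71.1%, 73% and 50.3% of the LPS level in pools 1 to 3 (log2 difference -0.64, adjusted p = 0.709 by limma and 0.0177 with the block), and Alox5ap was at 213%, 123% and 166% (0.71, adjusted p = 0.739 and 0.0144 with the block). Both genes thus departed in the same direction in 3 of 3 pools, as they had without LPS. The share of all tested genes with the same direction in 3 of 3 pools was not counted. With equal library sums and the block the adjusted p were 0.0446 and 0.0348. Leaving out pool 1 (adjusted p = 0.131 and 0.155) or pool 3 (0.365 and 0.373) ended both calls, and in a blocked fit of all 12 libraries the adjusted p were 0.1 for Ptgs1, which is not under the threshold, and 0.0362 for Alox5ap. Cd5l, one of 8 markers of resident large peritoneal macrophages, was at 1791, 658 and 1177 normalized counts in LPS pools and at 3730, 890 and 2009 in oxLDL+LPS pools, whereas Timd4 of the same list was at 230, 152 and 206 and at 134, 137 and 97, and Gata6 at 424, 189 and 112 and at 208, 205 and 90. The sum of the 8 markers, in which Cd5l was highest in every library, had a Pearson r of 0.78 with Alox5ap over 12 libraries. As deviations from group means, r was 0.81 with Alox5ap, 0.77 with Ltc4s and -0.83 with Ptgs2. Other marker sums gave values of like size in this measure. Ptgs2 had 0.84 with mast cell and -0.84 with platelet markers, and Alox5ap had 0.67 with neutrophil and -0.74 with eosinophil markers. The part of these cells in the differences was not tested.

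Pla2g4a was at 76.7%, 93.3% and 75.1% of the LPS level in pools 1 to 3 (log2 difference -0.30, adjusted p = 0.698 by limma and 0.0656 with the block). The call was lost with equal library sums and the block (0.15), without pool 1 (0.382) or pool 3 (0.418) and in the fit of all 12 libraries (0.185). Ptges was at 112%, 89.3% and 103% of the LPS level, with a mean difference of 0.02 and a 95% confidence interval of -0.24 to 0.27 (-0.18 to 0.21 with the block). The ratio of Ptgs2 to Ptges per kb was 2.47, 7.64 and 10.7 in LPS pools 1 to 3 and 0.42, 3.73 and 2.46 in oxLDL+LPS pools. Lta4h (0.04, interval -0.26 to 0.34), Tbxas1 (0.05, -0.25 to 0.34), Ptgis (-0.26, -1.31 to 0.79) and Ltc4s (0.19, -1.01 to 1.39) overlapped between the groups and were not called with or without the block. Alox5, at 8, 2 and 7 in LPS pools and at 12, 11 and 12 in oxLDL+LPS pools, had groups that did not overlap and passed the filter only through the oxLDL+LPS libraries (log2 difference 1.08, adjusted p = 0.736, and 0.234 with the block).

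**Figure D3:**
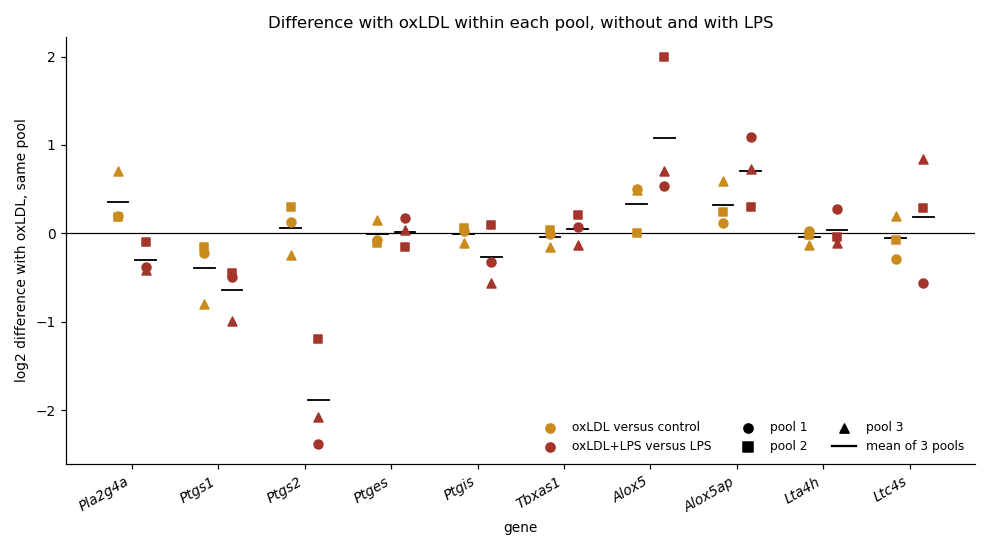
Log2 difference with oxLDL within each pool (vertical axis) for each gene (horizontal axis), without LPS (orange, oxLDL versus control) and with LPS (red, oxLDL+LPS versus LPS), with the shape of a point giving its pool and the bar the mean of 3 pools. Ptgs2 was below 0 in all 3 pools with LPS, at -2.39, -1.20 and -2.08, and on either side of 0 without it, Ptgs1 lay below 0 and Alox5ap above 0 in all 3 pools of both comparisons, and Pla2g4a was above 0 without LPS and below 0 with LPS.

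Whether the difference with oxLDL itself depended on LPS was tested as an interaction over all 12 libraries. Of 13482 genes 0% passed the threshold without the block, with 418 at an unadjusted p under 0.05, and 0% passed with the block, with 967 at that level, so none of the 10 was called. The interaction of Ptgs2 was -1.95 on the log2 scale (95% confidence interval -3.99 to 0.09, adjusted p = 1, and -3.30 to -0.60 and 0.657 with the block). That of Pla2g4a was -0.66 (-1.06 to -0.25, adjusted p = 1 by limma and 0.657 with the block). The intervals of the other 8 genes contained 0 in both fits, from -0.67 to 0.73 for Ptges and from -0.66 to 1.44 for Alox5ap without the block. The 4 comparisons of 2 groups draw on the same 12 libraries, so those that share a group are not independent of each other. An exact permutation test of 3 against 3 libraries cannot go below p = 0.1, and none was run.

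Ptgis followed the markers of stromal cells from library to library. Its normalized counts ran in the same order of pools in all 4 groups, with pool 1 the highest and pool 3 the lowest, and so did the summed normalized counts of 9 mesothelial and fibroblast markers (Upk3b, Msln, Krt19, Wt1, Col1a1, Col3a1, Dcn, Lum and Pdgfra). These were 15852, 11550 and 3923 in control pools 1 to 3, 12941, 9294 and 4229 with oxLDL, 21685, 9738 and 4271 with LPS and 13081, 10890 and 3788 with both. Over the 12 libraries, which share 3 pools, Pearson's r between log2 Ptgis and the log2 sum was 0.93, and 0.95 for deviations from the group means. For the other 9 genes it ranged from -0.29 to 0.26 over the libraries, and as deviations from the group means from -0.54 for Ptgs2 and Lta4h to 0.53 for Ptges and 0.59 for Ptgs1. The part of these cells in the Ptgis values was not tested.

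**Figure D4:**
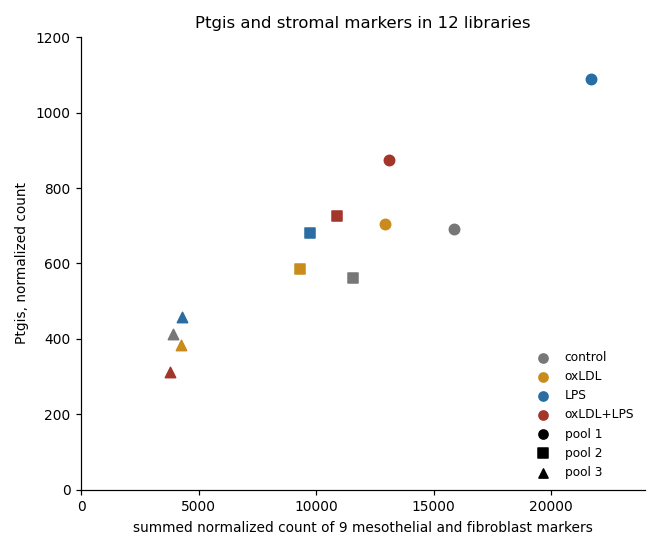
Normalized count of Ptgis (vertical axis) against the summed normalized count of 9 mesothelial and fibroblast markers (horizontal axis) in the 12 libraries, with colour giving the group and shape the pool. Pool 3 libraries of all groups lie at the lower left, with sums of 3788 to 4271 and Ptgis at 312 to 459, and the LPS library of pool 1 lies at the upper right, with 21685 and 1089.

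The wider eicosanoid pathway was described with 74 further genes, listed by role, of which 54 passed the filter in the comparison of LPS with control. Of these 54, 16 were higher and 18 were lower with LPS, with a median difference of -0.04 on the log2 scale, and these shares are near the 31.4% and 30.3% of all tested genes. In loaded cells the list had 16 higher and 14 lower genes among 54, and its median difference was 0.10, against 28.2% and 26.3% of all tested genes. With equal library sums the splits were 13 higher and 29 lower, and 11 higher and 20 lower, so the balance of directions depends on the scaling. The counts by role below stand against the same shares.

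Genes that release or reactivate arachidonic acid split by gene. Pla2g16, a phospholipase, rose from 73, 86 and 106 normalized counts in control pools to 953, 796 and 1204 with LPS (log2 fold change 3.46, limma adjusted p = 5.52e-06), whereas Daglb, the diacylglycerol lipase of macrophages, fell from 6463, 7494 and 7063 to 1043, 1442 and 1190 (-2.53, adjusted p = 3.62e-06). Pla2g15, the lysosomal phospholipase A2, fell by 1.67. In all, 2 of 10 tested genes of release were higher and 4 lower. The other higher gene, Pla2g4c, was at 0, 4 and 4 in control pools and at 29, 13 and 13 with LPS. It passed the filter only through the LPS libraries, so the count of higher genes is no support by itself. Of the 8 genes of arachidonate activation and return to phospholipids, 4 rose, among them Acsl1 (2.48), Acsl4 (0.88), an acyl-CoA synthetase that prefers arachidonic acid, and Lpcat2 (2.84), and Lpcat1 fell. The fourth, Lpcat3, rose by 0.33 (limma adjusted p = 0.0197). Equal library sums moved the median of all genes to -0.48, so the rise of Lpcat3 depended on the scaling.

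Among the other synthases Hpgds, for prostaglandin D2, fell from 2043, 2555 and 2555 normalized counts to 481, 423 and 389 with LPS (log2 fold change -2.46, limma adjusted p = 3.54e-06), and Cbr1, a carbonyl reductase that acts on prostaglandin E2, fell by 0.93. In loaded cells Hpgds fell by 2.54. Alox12, for 12-lipoxygenase, was at 0 to 2 in control libraries and at 28, 23 and 41 with LPS, and passed the filter only through the LPS libraries. Among the other listed leukotriene genes and glutathione transferases, Dpep2 and Dpep3 rose by 0.73 and 2.57, and Cotl1, whose product binds 5-lipoxygenase, fell by 0.68. Dpep3, at 11, 6 and 17 in control pools, passed the filter through the LPS libraries.

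All 3 tested receptors for prostaglandin E2 fell with LPS, Ptger1 by 1.09, Ptger2 by 1.94 and Ptger4 by 1.16 on the log2 scale, and the fourth tested prostanoid receptor, Ptgir for prostacyclin, was not called in unloaded cells and was higher by 0.54 in loaded ones (limma adjusted p = 0.0131, and 0.395 with equal library sums). The 4 tested receptors for cysteinyl leukotrienes and resolving mediators, Cysltr1, Cysltr2, Fpr2 and Cmklr1, were called higher with LPS, but with equal library sums Cysltr1 was at 0.25 and lost its call (adjusted p = 0.366). Fpr2, a receptor for formyl peptides and lipoxin A4, was at 3, 4 and 2 normalized counts in control pools and at 2086, 1419 and 2744 with LPS, and Cmklr1 went from 549, 676 and 712 to 3431, 2153 and 2662. Fpr2 passed the filter only through the LPS libraries. Cysltr2, at 8, 9 and 15 in control pools and at 77, 55 and 112 with LPS, passed it through the LPS libraries. Of 12 genes of breakdown and transport, Abcc1, an exporter of leukotriene C4, rose by 1.97, and 4 fell, among them Ptgr2 (-1.43) and Cyp4f16 (-0.78).

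**Figure D5:**
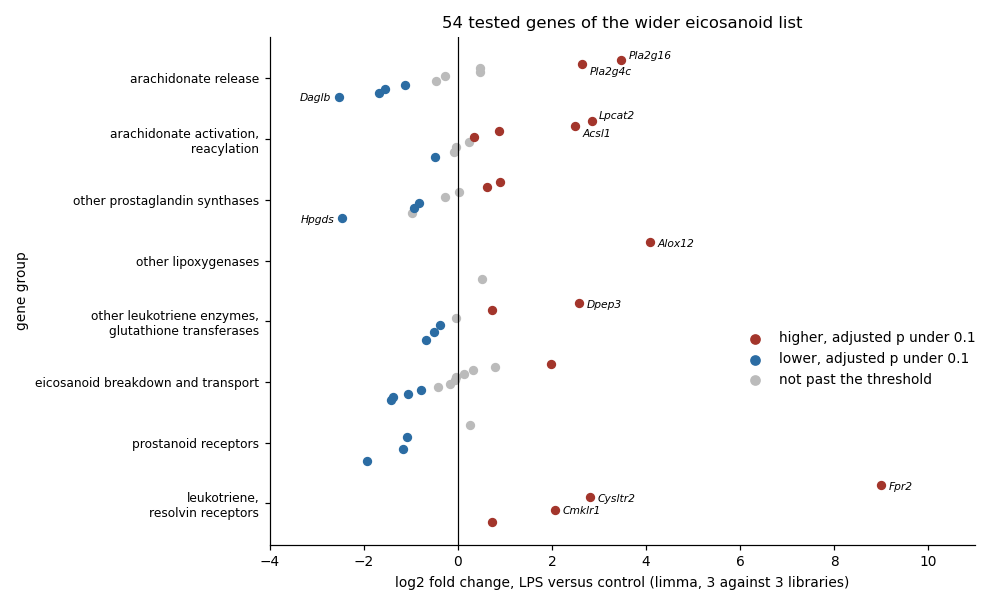
Log2 fold change with LPS in unloaded PMφs (horizontal axis, limma, 3 against 3 libraries) of the 54 tested genes of the wider list, by gene group (vertical axis), with red for higher, blue for lower and grey for genes not past an adjusted p of 0.1. Genes with a value of 2 or more in size are named, Fpr2 lies farthest to the right, and 3 prostanoid receptors are among the blue points.

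With oxLDL, none of the 51 tested genes of the wider list without LPS and none of the 54 with LPS was called by limma without the block, and 6 and 9 had an unadjusted p under 0.05. With the pool as a block 10 were higher and 6 lower without LPS, against 1.8% and 2.92% of all tested genes. With LPS 14 were higher and 6 lower (15 and 2 with equal library sums and the block), against 4.42% and 8.74%. The list was chosen with earlier results of these data known, so these counts and those by role below are no support by themselves. In a blocked fit of all 12 libraries 0 of 55 tested genes of the list were called without LPS, with 8 at an unadjusted p under 0.05, and 11 were higher and 5 lower with LPS. Leaving out pool 1 or pool 3 of the blocked comparison ended all calls with LPS. Of the 12 tested genes of breakdown and transport 3 were higher and 1 lower without LPS, and 5 and 1 with LPS, and of the 8 tested prostaglandin synthases and reductases 3 and 5 were higher. Ptgr1, an enzyme that inactivates leukotriene B4 and prostaglandins, was at 1017, 622 and 963 normalized counts in control pools and at 1576, 815 and 3084 with oxLDL, and at 756, 492 and 681 with LPS and 3178, 661 and 2511 with both. Every pool was higher with oxLDL, and pool 2 rose least in both states (blocked adjusted p = 0.0229 and 0.013, and 0.882 and 0.0425 in the blocked fit of all 12 libraries).

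For the reductases Cbr3 and Akr1b8 the log2 differences with oxLDL alone were 0.76 and 0.79 (blocked adjusted p = 0.0415 and 0.0136) and in the presence of LPS 1.96 and 1.82 (0.00923 and 0.0103). Abcc1 differed by 0.74 and 1.07 (blocked adjusted p = 0.0493 and 0.0101), and Pla2g7, which hydrolyses platelet-activating factor and oxidized phospholipids, by 0.73 and 1.00 (0.0018 and 0.00615). The receptor gene Ptger2 was higher by 0.47 and 1.16 (0.0175 and 0.024), against its fall with LPS. Acsl3, an acyl-CoA synthetase, was lower by 0.71 and 0.59 (0.0159 and 0.0226) and Pla2g16 by 0.50 and 0.45 (0.0917 and 0.0657). In the blocked fit of all 12 libraries the calls of these 7 genes with oxLDL alone were lost, with adjusted p of 0.32 for Acsl3 to 1 for Cbr3, Akr1b8 and Ptger2, whereas their calls in the presence of LPS held (0.0285 for Pla2g7 to 0.0988 for Pla2g16).

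Of the 13481 other genes that passed the filter over 12 libraries, those most like Ptgs2 by Pearson's r on log2 values were Ccl3 (0.999), Il12b (0.998) and Rabgef1 (0.998). The genes most like Ptges were Cd38 (0.997), Cdc42ep2 (0.996) and Acsl1 (0.996), and those most like Pla2g4a were Spred1 (0.994), Pttg1 (0.994) and Milr1 (0.993). These correlations are descriptions over 12 libraries that share 3 pools, and they are dominated by the gap between libraries with and without LPS.

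Exons of 5 of the 10 genes overlap those of a gene annotated on the opposite strand, by 148 bases for Ptgs1, 156 for Ptgis, 144 for Tbxas1, 189 for Alox5ap and 268 for Ltc4s. The libraries were made with a directional kit, but whether counting used the strand is not given in the sources used here, so the values of these 5 genes may include reads of their antisense partners.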

How the data were processed

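Poly(A) RNA of 12 libraries in 4 groups of 3 was sequenced as paired 150 bp reads with a directional kit. Per the study's methods and the submitters' processing notes, the authors used Trimmomatic 0.32 for trimming, STAR 2.5.1b for alignment to mm10 (GRCm38) and featureCounts for counting over GENCODE exons. The signal deposited by the authors holds whole numbers whose spacing fits read counts scaled by a library factor (0.7078 to 1.3097) and then rounded. The reads themselves were not recovered from it, so no count test was run, although the design had allowed for one, and values are called normalized counts. The table has 25 date-like symbols, which were not assigned, and no column of other samples. Of the 66 pairs of libraries, 0 were identical.

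Groups, from the sample labels, were compared with limma 3.58.1 in R 4.3.3 (lmFit, eBayes with a variance trend) on log2(value + 1), with genes at 10 or more in at least 3 of the 6 libraries of a comparison, or of all 12 for the interaction. P values were adjusted by Benjamini-Hochberg over all tested genes, and genes under 0.1 were called. The fit was tested on simulated data. Fold changes are on the log2(value + 1) scale, which understates those of low genes. The pooled cells of an experiment were divided among the groups, according to the study's methods, and same-numbered libraries deviated together from their group means (correlations of 0.234 to 0.657 over 13482 genes, at most 0.033 for other numbers), so the replicate number was used as a block in a paired fit, given where it changes a call. Without the block the p values rest on the spread between libraries within a group. With the block they rest on how much the difference itself varied between pools.

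The 10 genes and all gene lists were chosen with earlier results of these data known. All 10 were named. From the wider list of 74, up to 3 called genes per role and comparison with the smallest p were named, and for the 3 members with the largest range of group means, the 3 genes with the highest r. Cbr3, Cysltr1, Lpcat1, Lpcat3, Ptges2, Pla2g4c and Pla2g16 were partly named after their values were seen, as were the 2 noncoding neighbours of Ptgs2. Alternatives were pseudocounts of 0.5 and 10, no filter, a filter in every library, equal library sums, quantile normalization, no variance trend, all 12 libraries in 1 fit and each library left out. The block with equal sums was added after seeing the data. Exon lengths and positions are from GENCODE on GRCm38. Promoter sequences are from RefSeq (GRCm38.p6), and motifs were searched on both strands.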

Additional observations from a re-analysis of the deposited data

Results flagged for a closer look

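The difference with oxLDL ran in opposite directions without and with LPS for Pla2g4a. In oxLDL against control PMφs, all 3 pools were higher (log2 differences of 0.20, 0.18 and 0.70), and in oxLDL+LPS against LPS PMφs all 3 pools were lower (-0.38, -0.10 and -0.41). The interaction, which is the second difference minus the first, was -0.66 on the log2 scale. By limma over all 13482 genes it was not past the threshold (adjusted p = 1, and 0.657 with the replicate block). The groups have 3 libraries each, so no single library was tested as an outlier.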

How the results depend on the processing

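For the LPS comparisons, the counts of called genes stayed within 1.5 times of the original under every alternative run, with and without oxLDL. The counts for oxLDL did not. Called members in oxLDL against control went from 0 to 2 with the replicate block, and to 2 with the block and equal library sums, and genes of the wider list from 0 to 16 in both, but to 0 with the block in 1 fit of all 12 libraries. With LPS present, called members went from 0 to 4 with the block, 2 with the block in 1 fit of all 12 libraries and 3 with the block and equal sums, and genes of the wider list from 0 to 20, 16 and 17. With 1 library or pool left out, called members ranged from 0 to 2 and wider genes from 0 to 15 without LPS, and from 0 to 5 and 0 to 24 with LPS. The block raised Ptgis in LPS against control (0.36), and Alox5ap and Ltc4s in oxLDL+LPS against oxLDL, past the threshold, and apart from the members named in the report for oxLDL it changed no other call of a member. The cause of these changes was not tested. 

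Directions turned for values near 0. Ptgis was at -0.12 for LPS against control with equal sums, with or without the block, and for oxLDL+LPS against oxLDL at -0.28 with equal sums, with or without the block, and -0.02 with quantile normalization, with a range of -0.19 to 0.56 when a library was left out. Leaving out a library or pool gave, for oxLDL against control, -0.07 to 0.22 for Ptgs2, -0.25 to 0.25 for Ptges, -0.20 to 0.24 for Ptgis, -0.08 to 0.05 for Tbxas1, -0.06 to 0.69 for Alox5, -0.20 to 0.08 for Lta4h and -0.32 to 0.30 for Ltc4s. For oxLDL+LPS against LPS it gave -0.06 to 0.10 for Ptges, -0.56 to 0.19 for Ptgis, -0.05 to 0.14 for Tbxas1, -0.09 to 0.13 for Lta4h and -0.16 to 0.57 for Ltc4s. For the interaction it gave -0.44 to 0.06 for Ptgs1, -0.24 to 0.26 for Ptges, -0.55 to 0.20 for Ptgis, -0.01 to 0.15 for Tbxas1, -0.05 to 0.24 for Lta4h and -0.11 to 0.63 for Ltc4s. None of these reversed values was called.

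Of 1022 values of single members under an alternative, 907 kept their direction and their side of the threshold, 12 lost a call, 41 gained one and 62 turned direction. Where 1 pool was left out of a blocked fit, 2 pairs remained, and some p values became extreme. The smallest limma adjusted p over all genes was 2.49e-195 without pool 2 in oxLDL+LPS against LPS. It was 2.08e-116 without pool 3 in oxLDL against control. Counts of called genes from these fits are therefore no guide to the strength of a difference. Alox5 missed the filter, and could not be fitted, in LPS against control without a control library and in oxLDL+LPS against LPS without an oxLDL+LPS library. Alox5 and Ltc4s, at 2 to 49 normalized counts, had the lowest values of the 10 genes.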
